A study of Drosophila melanogaster with 16 samples.

Results

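peb, klu and cbt encode nuclear regulators with zinc fingers, and they were chosen because their transcripts gave large ratios in 1 or both of the Drosophila cell lines of the study. Their probes were found by gene symbol in the platform annotation: 3 probes, 1 for each gene, of 17258 probes on the array, or 3 of 11980 named genes. All 3 genes had a value on all 11 distinct arrays and passed the filter on missing values. The identifiers are CG12212 for peb, on chromosome arm X, CG12296 for klu, on 3L, and CG4427 for cbt, on 2L. No sequence of a probe, promoter or protein was used here.

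On each 2-colour array, RNA of Notch-activated cells was hybridised together with a comparison RNA. Notch was activated in DmD8 cells, a line from imaginal discs, and in Kc cells, an embryonic line, by 30 minutes in PBS with 2 mM EDTA; control cells had PBS alone, and both lines grew in the same insulin-supplemented serum medium. EDTA, a chelator of divalent ions, was the activating agent in every activated sample, so its other effects are part of every ratio against control cells. The DmD8 values carry titles of 2 experiments, one against control cells and one against activated cells pre-treated overnight with DFK-167 at 300 µM, which blocks presenilin, the protease that frees the intracellular part of Notch. The values under both titles are the same data: among 71019 pairs only 24 differed, and none by more than 4.87e-08. The 5 DmD8 arrays were therefore counted once, and whether their comparison RNA came from control cells or from inhibitor-treated cells is unsettled, since the titles say both. Kc had 6 arrays against control cells. Dye swaps were arrays 4 and 5 in DmD8 and 4 to 6 in Kc. The design gives 3 biological replicates per experiment, so the swaps are read as repeats of the same RNA and errors over arrays are too small. Arrays had values for 77.4% to 90.6% of probes, and their medians lay between -0.13 and 0.16. Ratios hold no expression level, so the identity of the lines could not be checked from their markers.

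Notch is a receptor whose intracellular domain is released on activation, enters the nucleus and switches on target genes with the DNA-binding protein Su(H); the E(spl) genes are its classical targets. peb, also called hindsight, is a large zinc finger protein needed in the amnioserosa, the trachea, photoreceptors and the ovarian follicle cells, where it acts downstream of Notch in the switch from mitotic to endoreplicating cycles. klu, klumpfuss, is related to the EGR and WT1 factors and is known from sensory organs, the eye and larval neuroblasts, whose self-renewal it promotes with Notch. cbt, cabut, is the fly relative of the TIEG (KLF10 and KLF11) repressors and is known from dorsal closure, from growth control and from the response to dietary sugar.

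peb was high in DmD8. Its log ratio of activated over comparison RNA was 2.40, 2.88 and 1.57 where activated RNA carried Cy5, and 1.72 and 2.09 on the dye swaps. All 5 values were positive, the mean was 2.13 ± 0.53 (SD, n = 5 arrays), and the orientations differed little beside that size, with means of 2.29 in Cy5 and 1.91 in the swaps. Of the named genes with a value, peb ranked between second (array 2) and number 18 (array 4) from the top of each array, and its fitted mean was number 3 of 8841 tested named genes. In Kc the log ratio of peb was 1.45, 0.86 and 0.95 with activated RNA in Cy5, and 1.35, 0.29 and 0.21 on the swaps. All 6 were positive as well, with a mean of 0.85 ± 0.52 (SD, n = 6), higher in Cy5 (1.09) than in the swaps (0.62), but they ranged from a rank of 34 on array 1 to 3907 of 9764 on array 6, so on the last array peb was close to the middle of all genes.

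klu showed the other order of the lines. In DmD8 its log ratio was 0.17, 0.10 and 0.01 with activated RNA in Cy5, and -0.26 and 0.30 on the swaps. These values lay on both sides of 0, with a mean of 0.06 ± 0.21 (SD, n = 5). On the Kc arrays klu stood at 1.92, 1.62 and 1.66 with activated RNA in Cy5, and at 1.57, 1.43 and 1.28 on the swaps. Every Kc value was above every DmD8 value, and the Kc mean of 1.58 ± 0.22 (SD, n = 6) made klu number 10 from the top among tested named genes of that line. It was also the evenest of the 3 genes: its SD over the Kc arrays was 0.22, against 0.52 for peb and 0.58 for cbt and a median of 0.26 over the 10060 features (a feature is a named gene or an unnamed probe) that all 11 arrays measured. Its rank from the top among named genes was 9, 12 and 10 on Kc arrays 1 to 3, and 21 on array 5. On arrays 4 and 6 klu ranked further down, at 190 of 10686 and 113 of 9764.

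cbt was low in Kc. There its log ratio was -0.48, -1.64 and -1.58 with activated RNA in Cy5, and -0.37, -1.47 and -1.47 on the swaps. All 6 were negative, with a mean of -1.17 ± 0.58 (SD, n = 6), number 3 from the bottom of the tested named genes. The array values formed a low set of 4, between -1.64 and -1.47, and a higher pair, arrays 1 and 4; Counted from the lowest named gene, cbt was number 2 on arrays 5 and 6, 39 on array 3, 240 on array 2, 949 on array 4 and 1075 on array 1. On the DmD8 arrays cbt stood at -0.01, 0.12 and 0.67 with activated RNA in Cy5 and at -0.20 and 0.55 on the swaps. That is a mean of 0.23 ± 0.37 (SD, n = 5), with arrays 3 and 5 above the others and no common sign.

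**Figure D1:**
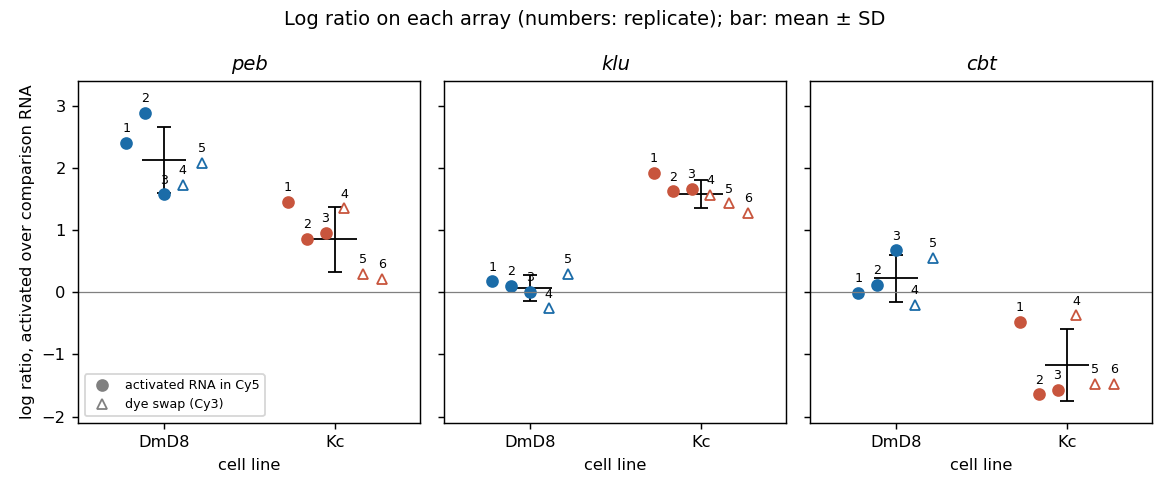
Log ratio of activated over comparison RNA (vertical axis) for peb, klu and cbt on each array of DmD8 and Kc, numbered by replicate. Filled circles have activated RNA in Cy5, open triangles are dye swaps, and the bar is the mean ± SD (n = 5 and 6 arrays). peb is above 0 on all 11 arrays, klu near 0 in DmD8 and above 1 in Kc, and cbt below 0 on all 6 Kc arrays.

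The values of the lines did not overlap for any of the 3 genes, but the gaps were narrow for peb and cbt. The lowest DmD8 value of peb was 1.57 and its highest Kc value 1.45. For cbt these were -0.20 and -0.37. How many of all features lack such overlap was not counted. With a dye term in each line, the fitted log ratio of peb was 2.10 ± 0.20 (SE) in DmD8 and 0.85 ± 0.18 in Kc, a difference of 1.24 ± 0.27. klu was lower in DmD8 by a fitted difference of -1.52 ± 0.12. cbt was higher in DmD8 by 1.39 ± 0.28. Of 12952 features tested, 10.9% differed between the lines (limma, adjusted p below 0.05), 4.42% higher and 6.51% lower in DmD8. These 3 genes were picked from the same ratios, so their differences are a description and no test is given. The comparison RNA of DmD8 may be from inhibitor-treated cells, so cell line and comparison RNA cannot be told apart. The dye terms were 0.19 and 0.24 for peb in DmD8 and Kc, 0.15 for klu in Kc and -0.064 for cbt in Kc.

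The spread of peb and cbt in Kc followed the same arrays. Arrays 1 and 4 held the highest peb values, with a mean of 1.40 against 0.58 on the other 4 (0.21 to 0.95), and the least negative cbt values, with a mean of -0.43 against -1.54 (-1.64 to -1.47). klu differed less, with 1.75 against 1.498. The order of the arrays was another by rank from the top among named genes. There peb was 34 of 9303 on array 1 but 362 of 10686 on array 4. On arrays 2 and 3 it was 96 of 9221 and 76 of 9996. On arrays 1 and 4 E(spl)mbeta-HLH, a bHLH repressor gene switched on by Notch, stood at 6.09 and 6.51, above its range of 4.55 to 4.92 on the other 4. E(spl)m3-HLH, another such repressor, stood at 4.30 and 4.55, above 3.92 to 4.11. The order was turned for E(spl)m2-BFM, a Bearded family member, which stood at 2.05 and 2.19 against 2.66 to 3.27. It was turned also for E(spl)m7-HLH, at 0.85 and 0.67 against 1.13 to 1.66. The E(spl) genes were set beside the members after their values had been seen.

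Arrays 1 and 4 are of opposite dye. Over the 10060 complete features, their deviations from the mean of their own orientation correlated at 0.54, those of arrays 2 and 5 at 0.40 and those of arrays 3 and 6 at 0.33, whereas the other 6 combinations lay between -0.34 and -0.06. Deviations cancel within each orientation for every feature, so positive correlations of some combinations make others negative. The labels do not say which replicate each swap belongs to, and these correlations are across features, which are not independent replicates. Whether arrays 1 and 4 share an RNA was not tested. Without them the fitted Kc value was 0.58 for peb, 1.498 for klu and -1.54 for cbt, so the sign of each stayed as it was.

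**Figure D2:**
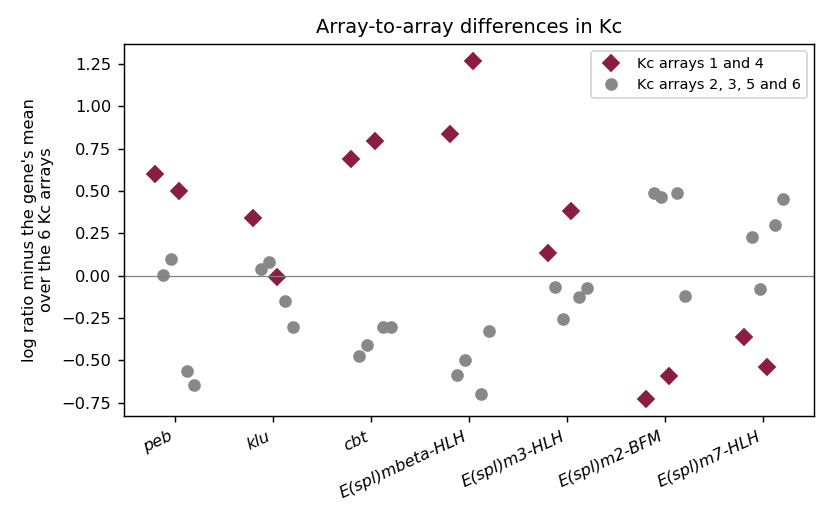
Log ratio on each Kc array minus the gene's mean over the 6 Kc arrays (vertical axis) for the 3 zinc finger genes and 4 E(spl) genes; diamonds are arrays 1 and 4, circles the other 4. Arrays 1 and 4 are above the rest for peb, cbt and the mbeta-HLH and m3-HLH genes of E(spl), below the rest for E(spl)m2-BFM and E(spl)m7-HLH, and for klu array 4 falls among the others.

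Over all 11 arrays peb and cbt correlated at 0.80, peb and klu at -0.68 and klu and cbt at -0.75. These are descriptions over arrays that share lines and replicates, and each gene's values form separate sets in the lines. By the correlation, the named genes most like peb of 6379 compared were jigr1 (0.96), Sirup (0.94), Polr1F (0.93), CG42553 and wapl (both 0.92). Of those, jigr1 had fitted ratios of 0.57 in DmD8 and -0.10 in Kc, well under the size of peb. By the root mean square difference, which also counts size, the nearest were drl, a Ryk receptor (0.65), Egfr, the EGF receptor (0.66), and sgl, a UDP-glucose dehydrogenase (0.75).

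For klu the highest correlations were with Hel89B (0.98), Ire1, the sensor of unfolded proteins in the endoplasmic reticulum, Ctns, the lysosomal cystine transporter, and Cyp6a20 (0.97 each), and Cftr (0.96). Their sizes differed from that of klu: in DmD8, where klu was near 0, Ire1 stood at -1.14, Cyp6a20 at -1.99 and Cftr at -1.49. In size the nearest to klu were CG15819 (root mean square difference 0.38; fitted 0.33 in DmD8 and 1.47 in Kc), bbg (0.40) and Cyp4e1 (0.44). cbt correlated most with CCDC53 (0.91), jumu, a forkhead factor (0.90), CG15390 (0.89), Lsm11 (0.88), a component of the U7 snRNP, and sofe (0.87). CCDC53, sofe and TTLL4A were also the nearest in size (0.44, 0.46 and 0.52), with fitted Kc values of -0.97, -1.13 and -0.93. The most opposite gene to cbt, picked after the values were seen, was E(spl)m2-BFM, with a correlation of -0.97 over the 11 arrays.

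Other C2H2 zinc finger factors were set beside the 3 genes, which are not on the list. The list, like those below, was chosen with earlier results of these data known, so its shares can be raised by that choice. Of 66 such genes on the list, 54 were named on the array and 33 were tested; the rest of those named lacked values. In Kc 12 of the 33 rose and 1 fell, which is 39.4%, where 11.9% of all features were called (7.1% higher and 4.81% lower), and the list median was 0.25 against 0.01 over all features. The largest rises were those of sug, the sugar-responsive Gli-related factor sugarbabe (1.03 ± 0.11, adjusted p = 0.000169, limma), Kr-h1, a factor of the juvenile hormone response (0.88 ± 0.08, adjusted p = 0.000201), and shn, a nuclear factor of Dpp signalling (0.78 ± 0.14). They were followed by zfh1, a zinc finger and homeodomain repressor (0.77 ± 0.09), br, an early gene of the ecdysone response (0.62 ± 0.06), and tsh, a trunk and wing hinge factor (0.60 ± 0.14). Each was positive on 6 of 6 Kc arrays. Without arrays 1 and 4 the Kc count was 8 instead of 13, and tsh was not past the threshold (adjusted p = 0.108); nor was it without array 1 or array 4 alone (0.0515 and 0.052). klu, at 1.58, lay above all 33 in Kc, and cbt, at -1.17, below all of them. Both were picked for their ratios, so these places are partly set by the choice.

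DmD8 called fewer of the list: 3 of the 33 rose and 2 fell, which is 15.2%, where 7.24% of all features were called (3.08% higher and 4.16% lower), and the list median was 0.07 against -0.04. Kr, the gap gene Krüppel, fell by 1.15 ± 0.10 (adjusted p = 0.000118, limma, lower on 5 of 5 arrays), and Kr-h1 by 0.51 ± 0.13 on 3 arrays (adjusted p = 0.0401). The rises were sqz, a neural factor (0.47 ± 0.12), br (0.32 ± 0.07) and jim (0.31 ± 0.07), with adjusted p between 0.0195 and 0.0303. Leaving out array 4 left 1 call of these 5, and arrays 2 and 5 left 2 each. br and sqz were lost without array 2, 4 or 5, and jim without 1, 2 or 4. Kr-h1 has no value on arrays 2 and 5, and without array 1, 3 or 4 it could not be tested. Its adjusted p moved to 0.0518 without array 5 although its own values were unchanged. Its call was lost with centring and without the dye term (adjusted p = 0.0791 and 0.115, limma). When swaps were averaged with replicates, which needs complete values and so covers 26 of the 33 and not Kr, 0 passed in every pairing in DmD8 by limma (3 at an unadjusted p below 0.05), and 8 passed in Kc. The DmD8 mean there rested on 2 averaged columns, since 1 replicate had no swap, and the Kc mean on 3. Calls lost in a pairing are therefore not alike in DmD8 and Kc. At 2.10 peb, likewise picked for its ratio, lay above all 33 in DmD8.

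**Figure D3:**
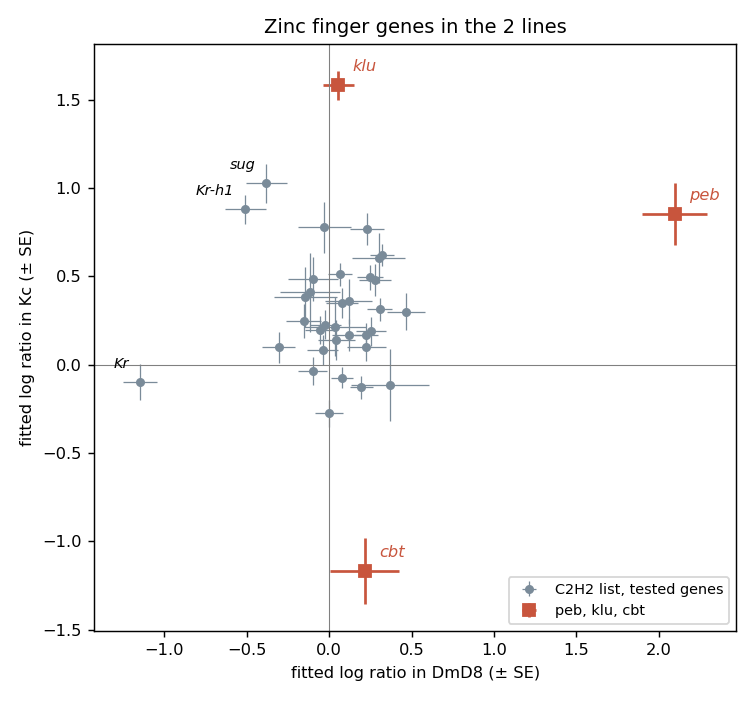
Fitted log ratio in DmD8 (horizontal axis) and in Kc (vertical axis), with SE bars, for the 33 tested genes of the C2H2 list (grey) and for peb, klu and cbt (squares). The 3 genes, which were picked for their ratios, lie outside the cloud of the list, peb to the right, klu above and cbt below it.

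Closer relatives were poorly measured. Of 7 KLF, SP and EGR genes on a list of relatives of klu and cbt, 4 were named on the array and only sr, the fly EGR gene, could be tested. It stood at 0.37 ± 0.24 in DmD8 and at -0.11 ± 0.20 in Kc, each on 4 arrays, and did not pass (adjusted p = 0.423 and 0.821, limma). In DmD8 sr was below 0 on 3 of those 4 arrays, so the sign of the fitted value rested on 1 array and the dye term. The others were btd (-0.35 and 0.94 in DmD8, 0.55 and 0.79 in Kc), Sp1 (-0.64 and -0.36, 1 array each) and hkb (-0.17 to 0.20 on 3 DmD8 arrays, no Kc value).

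Genes known to act with peb, or downstream of it, were considered next: 18 were listed, 14 named and 12 tested. The lists for peb, klu and cbt were chosen with earlier results of these data known, so their shares can be raised by that choice. In DmD8 3 rose and 1 fell, which is 33.3% beside 7.24% of all features. Egfr, whose mutants also fail in germ band retraction, rose by 2.32 ± 0.15 (adjusted p = 7.47e-06, limma), the E-cadherin gene shg by 0.50 ± 0.09 (adjusted p = 0.00545) and CycE, the G1 cyclin, by 0.35 ± 0.08 (adjusted p = 0.0233), each positive on 5 of 5 arrays. CycE did not pass without array 1, 4 or 5 (adjusted p up to 0.138), and neither shg nor CycE passed in every pairing of averaged swaps (largest adjusted p = 0.0647 and 0.24). kay, the Fos gene, fell by 0.73 ± 0.12 (adjusted p = 0.00331). In Kc 4 rose and none fell, which is 33.3% beside 11.9% of all features. They were puc, the phosphatase that restrains JNK (0.76 ± 0.09), ush, the GATA cofactor that names the u-shaped group to which peb belongs (0.74 ± 0.08), srp, the GATA factor of the same group (0.52 ± 0.07), and kay (0.43 ± 0.11), with adjusted p from 0.000174 to 0.0225. kay did not pass in Kc without array 3, 5 or 6, or without arrays 1 and 4 together (adjusted p = 0.0652). The list medians were 0.08 in DmD8 and 0.24 in Kc. ct and ci, which peb represses in follicle cells, stood at 0.51 ± 0.14 and -0.04 ± 0.10 in DmD8 and at -0.03 ± 0.13 and 0.08 ± 0.09 in Kc. Neither passed in either line (adjusted p for ct in DmD8 0.0521).

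The list for klu held neural progenitor and sensory organ genes, 22 in all, 18 of them named and 9 tested. emc, an inhibitor of proneural bHLH factors, rose in both lines, by 0.65 ± 0.10 in DmD8 and 0.59 ± 0.09 in Kc (adjusted p = 0.00173 and 0.00108, limma). brat, a translational repressor that limits neuroblast number, rose by 0.86 ± 0.11 and 0.50 ± 0.10 (adjusted p = 0.000747 and 0.0073). aos, the secreted inhibitor of the EGF receptor, rose in DmD8 by 1.54 ± 0.19 and stood at 0.24 ± 0.17 in Kc. No gene of the list fell. These made 3 calls of 9 in DmD8 (33.3% beside 7.24% of all features) and 2 of 9 in Kc (22.2% beside 11.9%), with list medians of 0.17 and 0.24. Without Kc arrays 1 and 4 brat did not pass in Kc (adjusted p = 0.0922). dpn, the bHLH repressor that acts beside klu in neuroblasts, was not tested, since Kc had 2 values (-0.80 and -0.09); in DmD8 it ranged from -0.22 to 2.32 over 5 arrays.

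The list for cbt joined regulators of the sugar response, the activin pathway and immediate early and clock genes. Among its tested genes, puc and kay are also on the peb list, and sug and sr on the C2H2 list. Of 23 listed, 21 were named and 18 tested. In Kc 6 rose and none fell, which is 33.3% beside 11.9% of all features, with a list median of 0.25. vri, a bZIP repressor of the clock, rose by 2.28 ± 0.11, Pdp1, the bZIP activator of the same loop, by 0.85 ± 0.10, and puc by 0.76 ± 0.09. Mondo, the sugar sensor upstream of cbt and sug, rose by 0.53 ± 0.14 (adjusted p = 0.0254, limma), a call lost in a pairing of averaged swaps (largest adjusted p = 0.0675), without array 1, 3, 4 or 6, and without arrays 1 and 4 together (adjusted p = 0.239). sug, which like cbt is a Mondo target in larvae fed on sugar, rose while cbt had negative values. On the Kc arrays sug stood at 1.51, 0.83 and 1.25, and at 1.17, 0.57 and 0.82 on the swaps, above 0 on all 6.

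In DmD8 2 genes of the cbt list rose and 4 fell, which is 33.3% beside 7.24% of all features, with a list median of -0.095. The activin ligand daw fell by 1.79 ± 0.13 (adjusted p = 1.34e-05, limma) and the gluconeogenic enzyme gene Pepck1 by 1.49 ± 0.19 (adjusted p = 0.000686), both below 0 on 5 of 5 arrays. kay fell, as given above, and vri fell by 0.54 ± 0.13 (adjusted p = 0.0225). The clock gene per rose by 0.46 ± 0.08 and ACC, of fatty acid synthesis, by 0.41 ± 0.11 (adjusted p = 0.0051 and 0.0397). Of these, vri did not pass without array 2, 3, 4 or 5, ACC without 2, 3 or 4, and per without 4; none of the 3 passed in every pairing of averaged swaps (largest adjusted p = 0.117, 0.227 and 0.091).

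**Figure D4:**
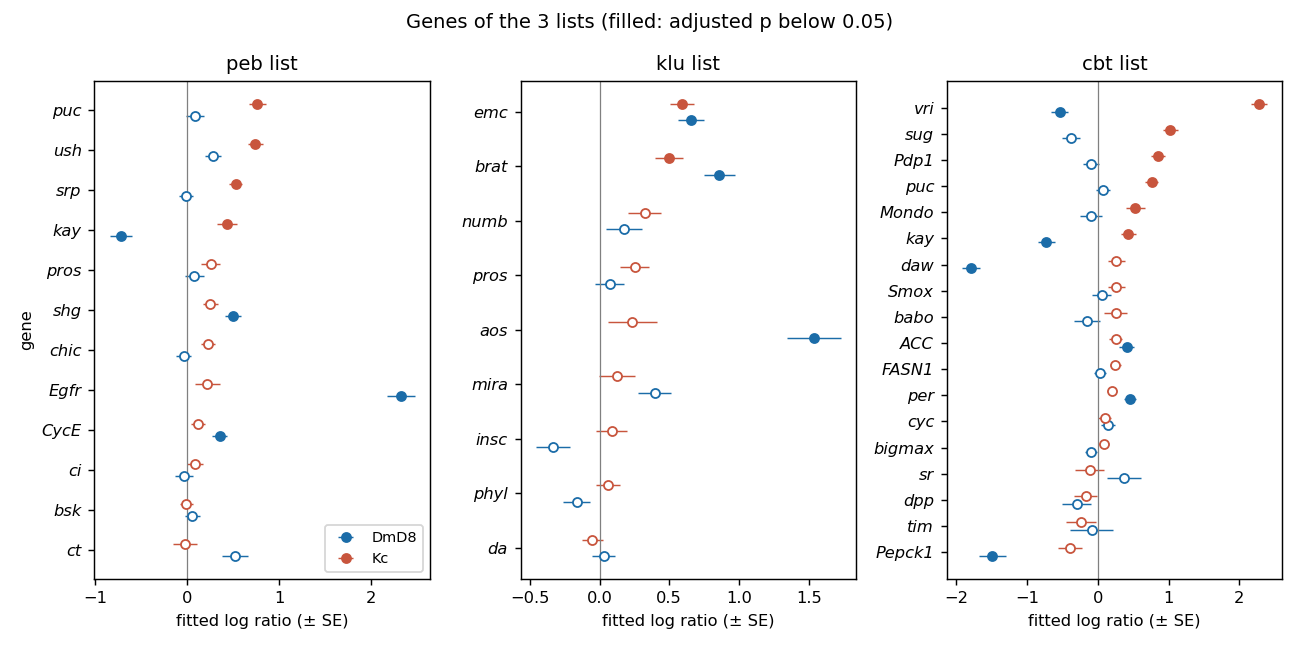
Fitted log ratio with SE (horizontal axis) of each tested gene of the lists for peb, klu and cbt, in DmD8 (blue) and Kc (red); filled points passed the threshold. Each list is ordered by the Kc value. kay and vri are filled on opposite sides of 0 in the cbt list, and emc and brat are filled on the same side in the klu list.

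Of the 66 distinct tested genes of the zinc finger, relative and network lists, 7 passed in both lines, 4 with the same sign (br, brat, emc and jim) and 3 with opposite signs (Kr-h1, kay and vri). Over all features 1.81% passed in both lines, 124 with the same sign and 111 with opposite signs. Kr-h1 was -0.50, -0.18 and -0.68 on its 3 DmD8 arrays and between 0.67 and 1.04 on the 6 Kc arrays. Its DmD8 call was lost with centring and without the dye term. kay was below -0.35 on all 5 DmD8 arrays and above 0 on all 6 Kc arrays, the lowest of them at 0.0028. vri ranged from -0.85 to -0.35 in DmD8 and from 1.77 to 2.57 in Kc, where arrays 1 and 4 were again its lowest (1.77 and 1.91). The differences of DmD8 minus Kc were -1.39 ± 0.15 for Kr-h1, -1.15 ± 0.16 for kay and -2.82 ± 0.17 for vri (adjusted p = 0.000606, 0.00119 and 4.59e-06, limma). With swaps averaged, kay missed the threshold in at least 1 pairing in each line (largest adjusted p = 0.0513 in DmD8 and 0.058 in Kc), as did vri (0.117), br (0.26) and jim (0.264) in DmD8.

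Genes next to the members were looked at for their own ratios. Up to 2 tested genes per side were taken from the 4 nearest named genes in the RefSeq gene order. They were 11, 4 for peb, 3 for klu and 4 for cbt, since before klu only Aps among those 4 had been tested. Next to peb, pon rose in DmD8 (0.51 ± 0.09, adjusted p = 0.00473, limma), and CG12684, CG3546 and Alms1a lay between -0.29 and 0.15 there. Next to klu, Aps, Fad2 and CG32081 lay between -0.37 and 0.02 in Kc, and none passed. The neighbour of cbt on one side was ush, which rose in Kc (0.74 ± 0.08) while cbt was negative; on the other side Ets21C, an ETS factor, fell by 0.52 ± 0.13 in DmD8 (adjusted p = 0.038) and stood at 0.25 ± 0.12 in Kc. In all, 2 of the 11 passed in DmD8 and 1 in Kc, too few to be read against the 7.24% and 11.9% of all features.

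Markers of hemocytes and of disc myoblasts were set beside these results. Of 9 hemocyte markers 5 were tested, and 1 passed in Kc, Hml (0.66 ± 0.16), which did not pass without array 1, 4 or 5; 0 passed in DmD8 by limma, and 0 at an unadjusted p below 0.05 (smallest adjusted p 0.349); the list medians were 0.11 and 0.03. Over all features 7.24% passed in DmD8 and 11.9% in Kc. Of 11 disc myoblast markers 7 were tested, and 57.1% passed in DmD8 and 28.6% in Kc. In DmD8 Him (2.36 ± 0.28), twi (1.06 ± 0.17) and kirre (0.53 ± 0.11) rose and sns fell by 0.54 ± 0.10, and in Kc zfh1 and rst (0.56 ± 0.10) rose. Without array 4 neither kirre nor sns passed, and without array 5, or in a pairing of averaged swaps (largest adjusted p = 0.122), kirre did not. Their part in the ratios of peb, klu and cbt was not tested.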

How the data were processed

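Ratios of 2-colour arrays were compared within and between DmD8 and Kc cells. The authors deposited 1 log ratio per probe and array, taken here as log2, though a natural log is not excluded by the values. Dapple was used to quantify the spots, per the labels' design text. No source used here gives the background correction, normalization, log base or ratio direction, so no folds are given. The deposited sign was kept, with swaps taken as already turned: E(spl)m3-HLH, E(spl)m2-BFM and E(spl)m7-HLH are positive on all 11 arrays, whatever the dye, and E(spl)mbeta-HLH on the 6 Kc arrays but of mixed sign in DmD8 (-0.26 to 0.27), and a positive value is likely, not stated, to be higher with activated RNA.

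Probes were named from the platform annotation (12658 with 1 symbol, 96 with several, 4504 unnamed); 12012 matched RefSeq gene IDs, used for names and gene order only. Probes of a gene were averaged. Features needed 3 arrays and both orientations per line, which left 12952. The 11 arrays were fitted with limma 3.58.1 (R 4.3.3), each line having its own mean and dye effect, with Benjamini-Hochberg adjustment at 0.05. The fit was checked on simulated data. The number of arrays limits the precision, and since swaps are read as repeats of 3 biological replicates, p-values are too small. In 36 further fits swaps were averaged with replicates in each possible way. DmD8 has 2 swaps, so 1 of its replicates stayed without a swap and was taken up by the dye term. The DmD8 mean in these fits thus rests on 2 averaged columns. The Kc mean rests on 3, with no dye term. Figures used matplotlib 3.10.9. The members and gene lists were chosen with earlier results of these data known. Named genes were the members, up to 6 called genes per list and line with the largest ratio, and the relatives. Also named were the 5 most correlated and 3 nearest genes to each member, and up to 2 tested neighbours per side. Other list genes named (ct, ci, dpn and the E(spl) genes) were chosen after their values were seen.

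Whether the labels' replicate numbers pair DmD8 with Kc was not settled. Deviations of same-numbered arrays correlated between -0.33 and 0.20. These values cannot decide it, since they compare features across different lines and the deviations of DmD8 arrays 4 and 5 mirror each other by construction.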

Additional observations from a re-analysis of the deposited data

Results flagged for a closer look

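Among 43 sets of arrays examined, 6 for peb, klu and cbt and 37 for named list genes, 2 had a value that stood alone, about as many as chance gives (1 in 20); none was of peb, klu or cbt. brat had its lowest Kc value, 0.11, on array 2, with the other 5 between 0.51 and 0.69. tsh had its highest Kc value, 1.36, on array 4, with the other 5 between 0.18 and 0.58.

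Of 32 named list genes, 18 differed between the lines by the limma test of DmD8 minus Kc, where 10.9% of all features did. These genes were named because they passed in a line with a large ratio, so the share among them is raised by that choice. Higher in DmD8 were Him (2.41), Egfr (2.10), aos (1.30) and twi (0.93). Lower in DmD8 were vri (-2.82), daw (-2.05), sug (-1.41), Kr-h1 (-1.39), kay (-1.15), Pepck1 (-1.10), Kr (-1.05), Pdp1 (-0.95) and shn (-0.81), and by less sns (-0.68), puc (-0.68), srp (-0.54), zfh1 (-0.53) and ush (-0.46).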

How the results depend on the processing

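Centring, leaving out the dye term and using the Cy5 arrays alone moved no fitted ratio of peb, klu or cbt by as much as 1 SD over arrays. With swaps turned, peb stood at 0.19 in DmD8 and 0.24 in Kc, klu at 0.15 and cbt at -0.064 in Kc. These are the dye terms of the main fit, since turning swaps exchanges the mean of a line with its dye term. Every value and count given below for swaps turned therefore describes dye terms. Leaving out 1 array, the ranges were 1.95 to 2.27 (peb), -0.082 to 0.20 (klu, negative without array 5) and 0.028 to 0.40 (cbt) in DmD8, and 0.67 to 0.95, 1.53 to 1.62 and -1.36 to -1.07 in Kc. Each gene has 1 probe, so the alternative by probe was not run.

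Calls over all features were 938 in DmD8, 1542 in Kc and 1415 for the difference: 2211, 2592 and 0 with swaps turned (by limma, 752 for the difference at an unadjusted p below 0.05), 456, 655 and 505 without the dye term, and 213, 602 and 321 under every pairing of swaps. The pairing fits used only the 10060 features with complete values, where the main model called 1018, 1493 and 1456. In them the DmD8 mean rests on 2 averaged columns and the Kc mean on 3. Leaving out 1 array gave 437 to 925, 905 to 1308 and 850 to 1263 (a count moved by over 1.5 times without DmD8 array 2, 4 or 5 for DmD8, Kc array 4 or 5 for Kc, and DmD8 array 4 for the difference). Without Kc arrays 1 and 4, chosen after seeing the data, Kc had 635 and the difference 866. For the C2H2 list the counts 5, 13 and 7 became 3, 0 and 0 with swaps turned (2 and 1 at an unadjusted p below 0.05 where 0), 0, 8 and 1 under every pairing, and 1 to 5, 9 to 13 and 3 to 7 without 1 array; without the dye term DmD8 had 2 and the difference 4, with complete features DmD8 had 3, with centring the difference had 4, and without Kc arrays 1 and 4 Kc had 8. With the replicate number as a block the difference had 676 calls and 3 in the list, and stood at 1.14 for peb, -1.56 for klu and 1.29 for cbt. The block model too was fitted only on complete features, where the difference without a block had 1456 calls and 5 in the list.

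Of 38 called values of named genes, 24 kept their call without any 1 array, and 19 of 31 with complete values under every pairing. Without the dye term 9 of the 38 lost their call. With swaps turned 1 kept it (br in DmD8), 18 lost it with the same sign and these 19 changed sign: in DmD8 ACC (-0.24), Him (-0.067), Kr-h1 (0.17), Pepck1 (0.016), brat (-0.22), daw (0.30), kirre (-0.24), per (-0.044) and sns (0.089), and in Kc Hml (-0.26), Pdp1 (-0.079), brat (-0.10), kay (-0.26), puc (-0.042), shn (-0.21), srp (-0.15), tsh (-0.070), ush (-0.17) and vri (-0.063). The signs with swaps turned are those of the dye terms, so they do not check the calls. The causes of the other losses were not tested.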
